A study of Mus musculus with 6 samples.

Results

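The 10 genes described here control or mark brown and beige fat: Ucp1, Ppargc1a, Prdm16, Cidea, Dio2, Tbx1, Tmem26, Lhx8, Zic1 and Ebf2. They were listed by name, by a rule that uses no measured value but with earlier results of these data known, and all 10 had a transcript cluster (a group of probes read together) annotated to their symbol alone, among 19938 genes with such a cluster. RNA was read on 6 Affymetrix mouse gene arrays, of immortalized stromal vascular preadipocytes whose source was inguinal white fat taken from male mice of the 129SVE strain. HBC (high binding cells, 3 arrays) had been sorted by FACS again and again for strong binding of FcsFNDC4, the extracellular part of the hepatokine FNDC4 fused to human Fc, and LBC (low binding cells, 3 arrays) for weak binding, both up to passage 20. Both were grown undifferentiated in serum-containing medium, with no treatment named in the labels between the last sort and lysis. The arrays of a group are technical replicates of 1 sorted population, so the p-values measure the spread between arrays and not between independent sorts, and binding cannot be told apart from any other difference between the 2 populations. Titles, descriptions and phenotypes set the groups, although the source name given for LBC replicates 2 and 3 is HBC.

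Brown adipocytes, and the beige adipocytes that arise within white depots such as the inguinal one, burn fuel to make heat. UCP1, in the inner mitochondrial membrane, lets protons flow back without making ATP. The cofactors PRDM16 and PGC-1α (the product of Ppargc1a) and the transcription factor EBF2 promote the expression of Ucp1 and of other thermogenic genes in fat cells and, for EBF2 and PRDM16, in their precursors.

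Of the 10 genes, Ebf2 and Lhx8 were higher in HBC and none was lower, where a call needs both an adjusted p below 0.05 and more than 1.5-fold (limma on log2(intensity + 16), adjusted over all genes). Among all genes, 2.54% were called higher and 1.13% lower. The heat-making genes at the end of the programme, Ucp1, Cidea and Dio2, and the coactivator gene Ppargc1a were within the dim range of olfactory receptor genes in either population. Olfactory receptor genes, which fat cells are not known to use, served as the reference for dim signal. Their group means had a 10th to 90th percentile of 13.8 to 84.0 in HBC and 13.9 to 86.1 in LBC over 1027 genes. The group means of Prdm16, Ebf2, Zic1, Lhx8, Tbx1 and Tmem26 lay above this range in both populations, those of Zic1 and Tmem26 by little. Intensities of different genes come from different probes and are not compared with each other.

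**Figure D1:**
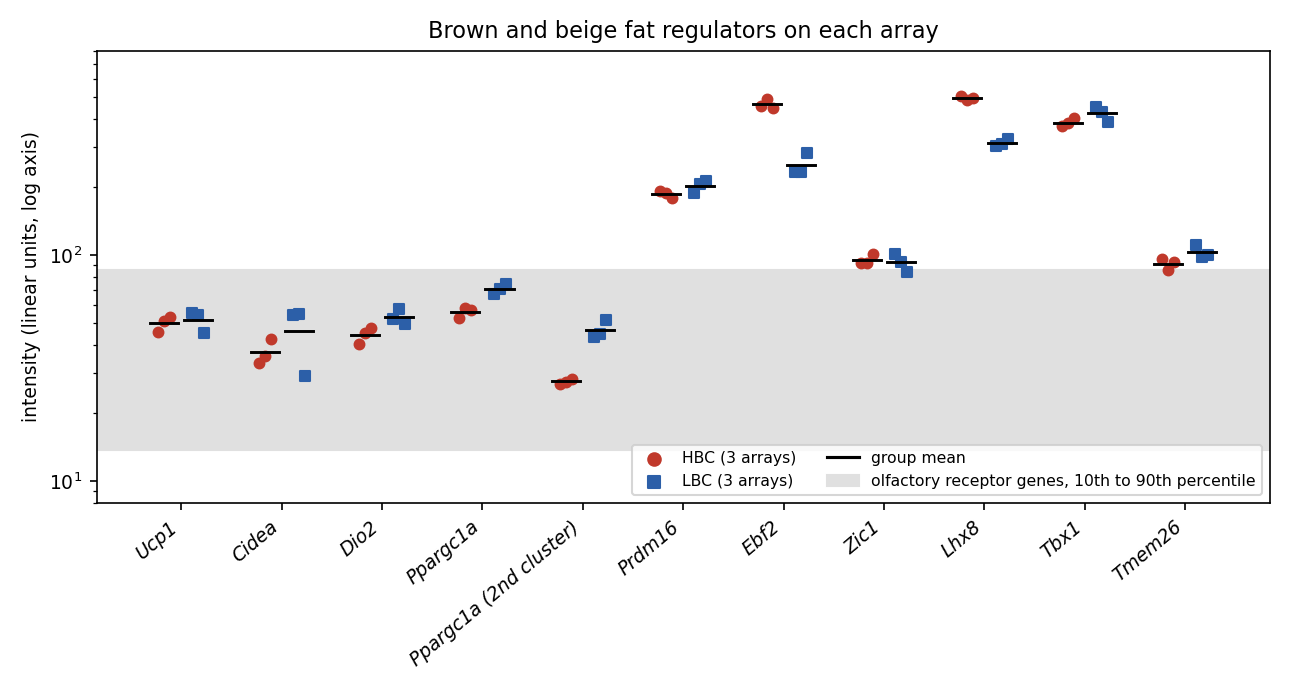
Intensity (linear units, log axis) of each regulator on every array, with HBC as red circles, LBC as blue squares, black lines at the group means and the 10th to 90th percentile of olfactory receptor genes in grey. For Ebf2 and Lhx8 all 3 HBC arrays lie above all 3 LBC arrays and above the grey range, whereas Ucp1, Cidea, Dio2 and both clusters of Ppargc1a lie within it.

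Ebf2 encodes a helix-loop-helix transcription factor that marks brown and beige precursors and acts with PPARγ at brown fat genes. Its transcript cluster (10416126) read 456, 491 and 448 in the HBC arrays and 233, 232 and 282 in the LBC arrays. The groups did not overlap, and the highest LBC value was that of replicate 3. The HBC mean of 465 ± 22.7 (SD, n = 3 arrays) was 1.87 times the LBC mean of 249 ± 28.9 (SD, n = 3). On the log2 scale the difference was 0.87 (standard error 0.090, 95% interval 0.68 to 1.05, adjusted p = 8.7e-09 by limma). The HBC mean was above those of all 1027 olfactory receptor genes, and the LBC mean above 99.9% of them. Over all alternatives to the processing the log2 fold change stayed between 0.79 and 0.96, and the highest adjusted p was 0.024.

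Lhx8 encodes a LIM homeobox factor known as a marker of classical brown fat, as opposed to beige. Its cluster (10502961) read 505, 483 and 495 in HBC and 302, 311 and 324 in LBC. Every HBC array was again above every LBC array, with little spread in either group. The HBC mean of 494 ± 10.6 (SD, n = 3) was 1.58 times the LBC mean of 312 ± 11.3 (SD, n = 3). The log2 difference was 0.64 (standard error 0.083, 95% interval 0.47 to 0.81, adjusted p = 7.4e-07 by limma). The lower end of the interval is under the 1.5-fold limit of 0.585, so the call rests on the chosen limit more than that of Ebf2 does. Both genes passed the methods' filter of a mean intensity above 100 in both groups, and neither differed by more than 2-fold. For 2 of the 10 genes all HBC arrays lay above all LBC arrays, against 10.1% of all genes. All HBC arrays lay below all LBC arrays for 3 of the 10 (Ppargc1a, Dio2 and Tmem26), against 25.1% of all genes.

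The promoter of Lhx8 is shown because Lhx8 was called higher together with Ebf2, a DNA-binding factor; of the 2 genes called, the promoter table used holds 1, Lhx8. The 250 bases before its start (RefSeq, GRCm38.p6, chr3:154330561-154330810, minus strand, 46% G and C) are given 5′ to 3′.
Lhx8 promoter: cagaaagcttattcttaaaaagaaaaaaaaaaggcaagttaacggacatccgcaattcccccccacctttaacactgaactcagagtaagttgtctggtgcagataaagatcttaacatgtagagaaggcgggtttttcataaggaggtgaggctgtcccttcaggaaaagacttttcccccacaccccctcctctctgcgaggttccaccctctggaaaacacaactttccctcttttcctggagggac
The core bound by EBF factors (CCCNNGGG), the cAMP response element (TGACGTCA) and the element of estrogen-related receptors (TCAAGGTCA) were searched on both strands and would be in capitals. None of these letter strings occurred in this window. Over 32851 promoter windows of the same length, 11.8% held the EBF core, 1.55% the cAMP response element and 0.387% the estrogen-related receptor element.

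Zic1, a zinc finger factor gene and the other classical brown marker of the set, was not called. It read 91.9, 91.6 and 101 in HBC and 101, 92.9 and 84.0 in LBC. The arrays of the groups overlapped, and the log2 fold change was 0.03 (95% interval -0.15 to 0.21, adjusted p = 0.85 by limma). Its means were above 92.7% of olfactory receptor genes in HBC and 91.9% in LBC.

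The cofactor and both beige markers had small differences that did not pass the test. Prdm16, the gene of a zinc finger cofactor that directs precursors to brown fat, read 192, 187 and 178 in HBC and 189, 207 and 212 in LBC. The ranges overlapped, with a log2 fold change of -0.11 (95% interval -0.29 to 0.06, adjusted p = 0.39 by limma). Tbx1, a T-box factor gene used as a beige marker, read 370, 383 and 401 in HBC and 453, 428 and 388 in LBC. Here too the groups overlapped, at the highest HBC and the lowest LBC array, and the log2 fold change was -0.13 (95% interval -0.31 to 0.05, adjusted p = 0.33 by limma). Its means were above all olfactory receptor genes in both populations. Tmem26, a membrane protein gene used to mark beige cells, read 95.7, 85.5 and 93.2 in HBC and 110, 97.9 and 100.3 in LBC. These arrays did not overlap, but the log2 fold change was only -0.14 (95% interval -0.32 to 0.03, adjusted p = 0.26 by limma). After cyclic loess normalization the differences shrank to -0.03 for Prdm16, -0.05 for Tbx1 and -0.06 for Tmem26, and without LBC replicate 1 that of Tbx1 was -0.08. For Prdm16, Tbx1, Tmem26 and Zic1 the 95% intervals lay within 1.5-fold in either direction.

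The thermogenic genes of the set all read within the range of olfactory receptor genes. Ucp1 read 45.6, 51.0 and 52.9 in HBC and 55.1, 54.2 and 44.9 in LBC, with overlapping arrays and a log2 fold change of -0.03 (95% interval -0.21 to 0.15, adjusted p = 0.84 by limma). Its mean was above 70.0% of olfactory receptor genes in HBC and 69.0% in LBC. Cidea, the gene of a lipid droplet protein abundant in brown fat, read 33.3, 35.7 and 42.4 in HBC and 54.4, 54.6 and 29.2 in LBC. LBC replicate 3 was the lowest of all 6 arrays and the other 2 LBC arrays were the highest. The log2 fold change was -0.20 (95% interval -0.44 to 0.04, adjusted p = 0.26 by limma), and without LBC replicate 3 it was -0.41 (adjusted p = 0.0015), still under 1.5-fold. Without LBC replicate 1 or 2 it was -0.09 in each case, so single LBC arrays set its size.

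Dio2 encodes the deiodinase that turns thyroxine into the active thyroid hormone T3 within brown fat. It read 40.2, 44.9 and 47.7 in HBC and 52.0, 57.5 and 49.4 in LBC, which did not overlap. The log2 fold change was -0.19 (95% interval -0.37 to -0.02, adjusted p = 0.13 by limma). Without LBC replicate 3 it was -0.23 (adjusted p = 0.033), again under 1.5-fold.

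Ppargc1a, the gene of the PGC-1α coactivator that drives mitochondrial biogenesis, has 2 transcript clusters, and both read lower in HBC on every array. The brighter one (10529979) read 52.3, 58.0 and 57.0 in HBC and 67.1, 70.6 and 74.0 in LBC. Its log2 fold change was -0.27 (95% interval -0.44 to -0.10, adjusted p = 0.023 by limma), under the fold limit. The adjusted p rose above 0.05 under all 3 other scalings (0.069 to 0.10), with the methods' t-test (0.059), with a replicate block (0.068), without HBC replicate 1 (0.17) and without LBC replicate 2 (0.094). The dimmer one (10529977) read 26.9, 27.5 and 28.3 in HBC and 43.2, 44.5 and 51.5 in LBC, a ratio of means of 0.594. On the log2(intensity + 16) scale its difference was -0.52 (95% interval -0.69 to -0.34, adjusted p = 3.2e-05 by limma, with all transcript clusters tested), short of 1.5-fold. The added 16 makes the fold of such dim values smaller. In both populations both clusters were as dim as olfactory receptor genes, and across all genes and olfactory receptor genes the median log2 fold change was -0.07 and -0.04.

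**Figure D2:**
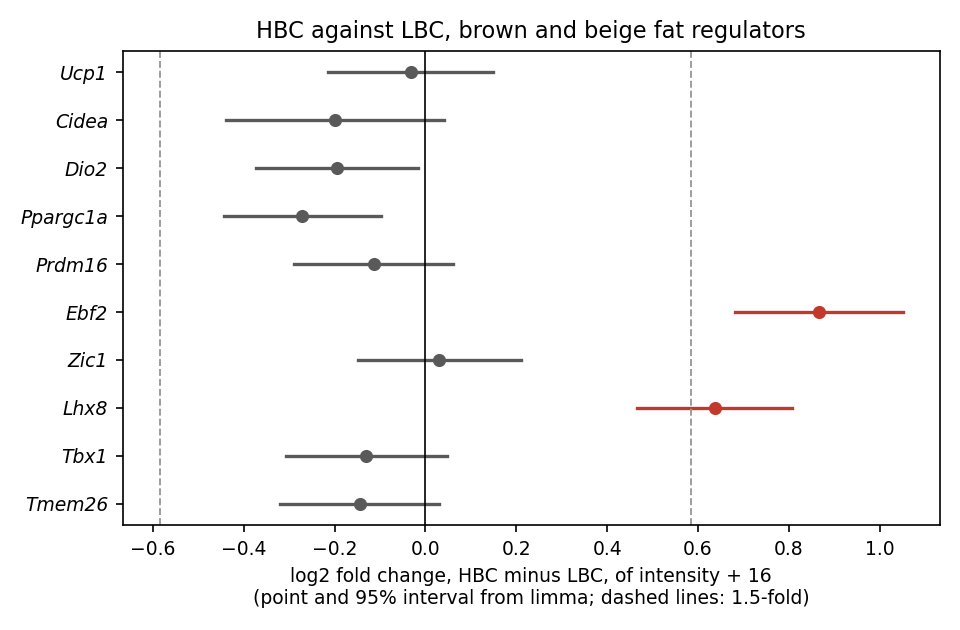
HBC minus LBC log2 difference of (intensity + 16) for each regulator, with its 95% interval from limma over 3 arrays per group, and dashed lines at 1.5-fold. Ebf2 and Lhx8, in red, were called higher, and the intervals of the other 8 genes, in grey, lie within the dashed lines.

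The wider programme was read from lists around the 10 genes, counted here without them. Since only 2.54% of all genes were called higher and 1.13% lower, the absence of calls in lists this short says little. Of 12 other thermogenic and mitochondrial genes of brown adipocytes, none was called in either direction, with a median log2 fold change of -0.05. Cox7a1, a respiratory chain subunit used as a brown fat marker, passed the test on p and not on fold. It read 169, 169 and 171 in HBC and 128, 127 and 112 in LBC, with no overlap. Its log2 fold change was 0.42 (adjusted p = 0.00041 by limma). Pank1, of the same list, also passed on p and not on fold, but was lower in HBC. The arrays of Pank1 did not overlap either, and its log2 fold change was -0.32 (adjusted p = 0.0076 by limma). Cox8b and Elovl3, other genes typical of brown fat, read as dim as olfactory receptor genes in both populations, at means of 63.0 and 67.2 for Cox8b and 29.7 and 31.1 for Elovl3 in HBC and LBC.

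Of 21 other transcription factors and cofactors that promote the programme, none was called (median -0.15). Pparg, the adipogenic nuclear receptor with which EBF2 and PRDM16 act, read 1716, 1701 and 1705 in HBC and 1257, 1316 and 1506 in LBC. The groups did not overlap, and the log2 fold change of 0.33 (adjusted p = 0.0070 by limma) was under the fold limit. Kdm1a, a histone demethylase that works with PRDM16, had a log2 fold change of -0.28 (adjusted p = 0.028). Without the fold limit, Pparg was the 1 gene of this list that passed as higher in the fit reported. Over the alternatives the adjusted p, by limma or the methods' t-test, reached 0.10 for Pparg and 0.17 for Kdm1a. The 4 that passed as lower were Mecom, Kdm1a, Ctbp2 and Esrrg, the last as dim as olfactory receptor genes in HBC. Mecom changed most of these, at a log2 fold change of -0.41 (adjusted p = 0.0025 by limma). None of 10 factors that restrain the programme was called either (median -0.04), and Zfp423, which holds white adipocytes in their state, had a log2 fold change of 0.18 (adjusted p = 0.14).

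Among 14 receptors, ligands and hormone-handling genes that feed the programme, 2 were higher, 1 was lower and 11 were not called, with a median of -0.04. Dio3, whose deiodinase inactivates thyroid hormone and so works against that of Dio2, read 558, 554 and 477 in HBC and 60.1, 66.2 and 87.2 in LBC. The groups were far apart, with a ratio of means of 7.45, or 2.66 as a log2 difference (standard error 0.100, adjusted p = 5.0e-19 by limma). Since the LBC mean of 71.1 was as dim as olfactory receptor genes, the size of this rise is uncertain. Adcy3, an adenylyl cyclase that makes cAMP, a messenger that switches on heat production in brown fat, rose from 289 ± 9.86 (SD, n = 3) in LBC to 512 ± 18.2 (SD, n = 3) in HBC (log2 fold change of 0.79, adjusted p = 1.3e-08 by limma). Npr3, the clearance receptor that removes natriuretic peptides, was lower in HBC, at 116 ± 7.13 (SD, n = 3) against 232 ± 28.4 (SD, n = 3), with a log2 fold change of -0.90 (adjusted p = 5.7e-09 by limma). Thra, a thyroid hormone receptor gene, had a log2 fold change of 0.31 (adjusted p = 0.0092) and was not called.

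**Figure D3:**
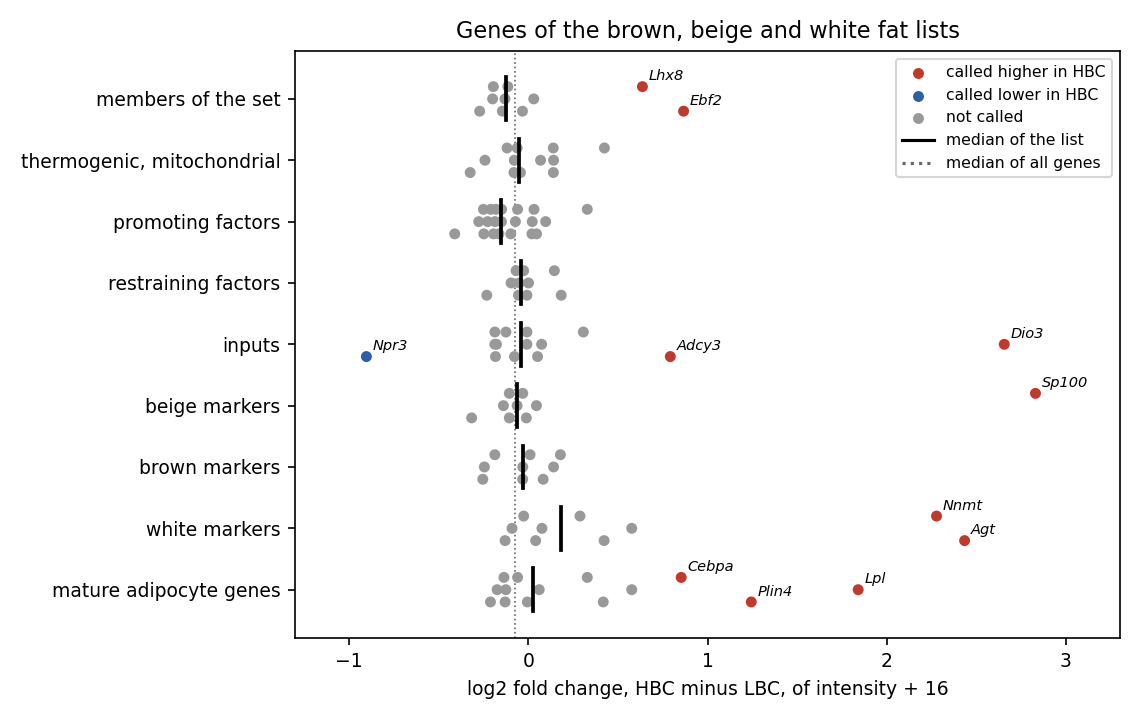
HBC minus LBC log2 difference of (intensity + 16) for every gene measured in the lists shown. There is 1 point per gene from limma over 3 arrays per group, with the members taken out of the other lists. Genes called higher are red, genes called lower blue, black bars give list medians and the dotted line the median of all genes (-0.07); the named genes are those called.

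Of 9 other beige adipocyte markers, 1 was higher and 8 were not called (median -0.06). It was Sp100, a nuclear body protein that interferon induces, with means of 2009 ± 262 for HBC and 268 ± 31.6 for LBC (SD, n = 3 each), or 2.83 as a log2 difference (adjusted p = 9.2e-20 by limma). Tnfrsf9, a TNF receptor family member used as a surface marker of beige precursors, went the other way in value, at 208, 196 and 184 in HBC and 244, 252 and 245 in LBC. Its log2 fold change of -0.32 (adjusted p = 0.0074) was not called, nor was that of Cited1 (-0.14, adjusted p = 0.29), a transcriptional coregulator gene used to mark beige cells. None of 9 other classical brown markers was called (median -0.03), so Lhx8 was the 1 gene called among 11 with Lhx8 and Zic1. For 3 of these 9 all HBC arrays lay below all LBC arrays and for 1 above, against 25.1% and 10.1% of all genes. Fbxo31, among those below, passed on p and not on fold, at a log2 fold change of -0.25 (adjusted p = 0.032 by limma). Its dimmer cluster overlapped, at -0.04 (adjusted p = 0.78 by limma).

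White adipocyte markers and genes of mature adipocytes were set beside these. Of 10 white markers, 2 were higher, none was lower and 8 were not called (median 0.18). Agt, the gene of angiotensinogen, had a log2 fold change of 2.43, and Nnmt, the gene of a nicotinamide methyltransferase high in white fat, one of 2.28. Without the fold limit, 5 white markers passed as higher and 0 as lower. Retn (0.58), Hoxc10 (0.42) and Hoxc8 (0.29) then joined Agt and Nnmt. Of 14 mature adipocyte genes, 3 were higher and 11 were not called (median 0.03). These were Lpl (1.84), for the lipase that takes up lipoprotein fat, Plin4 (1.24), for a lipid droplet coat protein, and Cebpa (0.85), for an adipogenic transcription factor. Without the fold limit, 6 mature adipocyte genes passed as higher and 0 as lower. Retn, Fabp4 (0.42, adjusted p = 0.0013 by limma) and Pparg were those added. Adipoq, the adiponectin gene and a mark of mature fat cells, read in HBC 43.0 ± 0.523 and in LBC 40.7 ± 4.91 (SD, n = 3 each), as dim as olfactory receptor genes, while Fabp4, a fatty acid binding protein gene that precursors also switch on, read 2363 ± 78.1 (SD, n = 3) and 1774 ± 246 (SD, n = 3).

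**Figure D4:**
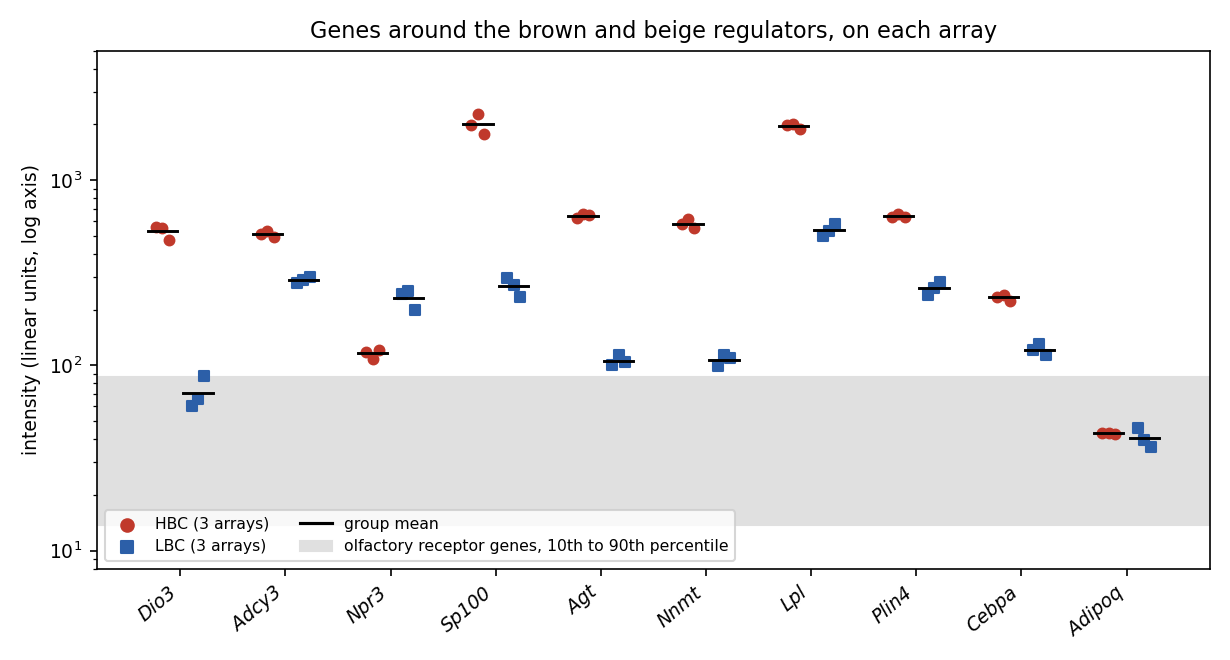
Intensity (linear units, log axis) on every array of list genes called in HBC versus LBC, and of Adipoq, with HBC as red circles, LBC as blue squares, black lines at the means and the olfactory receptor range in grey. The groups do not overlap for the 9 genes called, with Npr3 lower in HBC, and the LBC mean of Dio3 is in the grey range.

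The labelled cell type was checked against marker lists. Of 13 stromal preadipocyte markers, 11 lay above the range of olfactory receptor genes in both populations, among them Pdgfra, with means of 4096 ± 265 for HBC and 3167 ± 280 for LBC (SD, n = 3 each), and Col1a1. Eng and Col3a1 were higher in HBC and Dcn was lower (log2 fold changes of 0.78, 0.80 and -0.78). Without the fold limit, 6 of the list passed as higher, Pdgfra and Col1a1 among them, and 2 as lower, Dcn and Cd34. Cd34 had a log2 fold change of -0.45 (adjusted p = 0.00019 by limma). Of the macrophage, endothelial, skeletal muscle and Schwann or neural markers (12, 8, 10 and 5 measured), none was called. In both populations, 6, 6, 3 and 1 of them were within the olfactory receptor range or below it. In both, 6, 1, 7 and 4 were above it, so this range does not set the labelled type apart from macrophages, muscle or neural cells. Without the fold limit, Cd14 of the macrophage list passed as lower (log2 fold change of -0.48, adjusted p = 8.9e-05 by limma). So did Tubb3 of the neural list (-0.39, adjusted p = 0.0010 by limma), and the arrays overlapped for neither. Summed macrophage markers ran from 1004 to 1048 over the HBC arrays and from 1129 to 1205 over the LBC arrays, and summed endothelial markers from 603 to 689 and from 596 to 728. Skeletal muscle markers, of interest because brown fat and muscle share an origin, summed to between 1820 and 2033 in HBC and between 1872 and 2063 in LBC, and Schwann or neural markers to between 828 and 862 and between 932 and 986. Of 6 mesothelial markers, Msln was lower in HBC. Its HBC mean was as dim as olfactory receptor genes, so the size of the fall is uncertain. Krt19, of the same list, ran the other way without overlap and was not called (log2 fold change of 0.38, adjusted p = 0.0022 by limma). The list summed to between 946 and 976 in HBC and between 975 and 1036 in LBC. The part of such cells in the results for Ebf2 and Lhx8 was not tested. In RNA from a whole population, more cells that express a gene and more RNA of it per cell cannot be told apart.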

How the data were processed

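RNA of 3 HBC and 3 LBC technical replicates was hybridized to Affymetrix mouse gene arrays. The authors deposited linear intensities, for which the submitters' processing notes name Affymetrix Expression Console. Not given in the sources used here were its version, how probes were summarised and how arrays were scaled. Array medians ran from 122 to 135, and the number of arrays limits the precision. The methods name another version of the array than the 1 whose annotation matched the row identifiers. Of 35556 transcript clusters, 21789 had exactly 1 symbol, and the cluster with the highest mean stood for a gene with several. Symbols matched RefSeq (GRCm38.p6) by gene identifier for 21698 of these clusters, with no symbol changed, and no gene coordinates are given, since no build is named for that annotation.

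Values were tested as log2(intensity + 16) with limma 3.58.1 in R 4.3.3 over 19938 genes, with Benjamini-Hochberg adjustment, a limit of 0.05 and 1.5-fold, and no replicate block. The fit was tested on simulated data. The shared variance had 24.9 prior against 4 residual degrees of freedom, so the exponents of very small p-values carry little. Members and lists were chosen with earlier results of these data known; they get counts and medians, no set test. All members were named. Of the lists, up to 4 called genes with the largest change were named, with some defining genes and some that passed on p alone. The 12 list genes with no cluster of their own in the annotation used were not analysed here.

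The alternatives were 3 scalings between arrays, 2 intensity filters, other offsets, thresholds, variance priors and handling of clusters, the methods' t-test, a replicate block and leaving out each array.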

Additional observations from a re-analysis of the deposited data

How the results depend on the processing

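Ebf2 and Lhx8 were the members called under 18 of 20 alternatives. At a fold above 2, 0 members were called, and without a fold threshold 3, with Ppargc1a lower at an adjusted p that 7 other alternatives raised above 0.05. Their count was 2 without any single array, and the count over all genes ran from 710 to 784. Over all genes, 732 were called in the fit reported, 3655 without a fold threshold and 280 at a fold above 2. The share of higher calls among these was 69.3%, 37.8% and 84.3%, and the share under the alternatives that kept the threshold ran from 61.6% without LBC replicate 1 to 78.2% after cyclic loess normalization. Lhx8 came nearest to the limit with 50 added in place of 16, at 0.59.

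Differences near 0 changed sign. Ucp1 turned to 0.034 after quantile normalization, 0.043 after cyclic loess, 0.012 after median centring, and 0.015 and 0.0079 without HBC or LBC replicate 1, with a range of -0.10 to 0.015 when leaving out arrays. Zic1 turned to -0.010 without HBC replicate 3 and -0.029 without LBC replicate 3, in a range of -0.029 to 0.087. After cyclic loess Cidea was at -0.13, Dio2 at -0.12 and Zic1 at 0.11. Checks for 27 of the named genes of the lists were added after seeing the data. In them Cox8b turned to 0.0012 after cyclic loess and 0.0081 without HBC replicate 2, in a range from -0.15 when leaving out arrays. Elovl3 turned to 0.023 after quantile and after cyclic loess normalization, 0.0010 after median centring and 0.011 without LBC replicate 1, in a range from -0.11. Plin1 turned to 0.048, 0.078 and 0.039 after quantile, cyclic loess and median scaling, and to 0.013, 0.051 and 0.050 without HBC replicate 1, HBC replicate 2 and LBC replicate 1, in a range from -0.079. The calls of the 10 members and these 27 genes held under every alternative that kept the 1.5-fold threshold and the gene. Passes on p alone were less stable. Among the genes checked, the highest adjusted p was 0.10 for Pparg, 0.17 for Kdm1a, 0.080 for Thra and 0.11 for Pdgfra. It was 0.13 for Col1a1, 0.13 for Fabp4, 0.051 for Tnfrsf9 and 0.031 for Cox7a1 (all by limma or the methods' t-test). Retn, a white and mature adipocyte gene outside them, was called higher under 8 alternatives, and Pdgfrb without LBC replicate 3. The cause was not tested.

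No pairing by replicate number was seen, since the deviations from the group means had correlations of -0.096, -0.24 and -0.50 between arrays of the same number, against 0.50 between HBC replicate 3 and LBC replicate 1. The fit with the replicate block called 732 genes and the same 2 members. The methods' filter leaves 4 members (Prdm16, Tbx1, Lhx8 and Ebf2), so it gives no value for the other 6. Dim signal limits what can be said of Ucp1, Ppargc1a, Cidea and Dio2.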
